A study of Homo sapiens with 18 samples.

Results

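This account describes chromatin regions that were open in 2 lines of K562 cells and had no called peak in the last line, and that were therefore chosen by their ATAC-seq peak calls. K562 is an erythroleukemia cell line of human origin. The control, V-K562, holds only the vector. Wild-type BASP1 is expressed in B-K562, and G-K562 expresses BASP1-G2A, a mutant that cannot be myristoylated at its N-terminus. All groups share the K562 background, and each line was assayed in 3 culture replicates by ATAC-seq and in 3 by RNA-seq. Each line is 1 stably transfected pool of cells and not a clone, so a difference between pools and an effect of the BASP1 protein cannot be told apart. Overlapping peak intervals of the 9 ATAC-seq libraries were joined into 85549 regions in GRCh38. A region was taken as lost only in G-K562 when all 3 V-K562 and all 3 B-K562 libraries had a peak in it and no G-K562 library did. This held for 2659 regions, which is 8.26% of the 32198 regions with a peak in all 6 V-K562 and B-K562 libraries. Another 26984 of the 32198 regions had a peak in all 9 libraries. The mirror set, with a peak in all V-K562 and G-K562 libraries and none in B-K562, held 1066 regions.

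ATAC-seq marks DNA that a transposase can reach, so its peaks lie at active promoters, enhancers and other sites where nucleosomes are displaced. In erythroid cells many enhancers are bound by GATA1, a zinc finger factor that recognizes the letters GATA, often in a complex with TAL1, LMO2 and LDB1. This complex sits at the genes for globins and for the enzymes and transporters of heme synthesis. BASP1 is a transcriptional corepressor of WT1, and its N-terminal myristoyl group takes part in its interaction with cholesterol.

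Most of the lost regions held a GATA motif, the letters AGATAA or TGATAA on either strand, in the 300 bp around the summit. The sequences of 4 regions with the motif are shown, picked from the highest lost regions and from the genes with the 10 largest falls of RNA. They were read from the plus strand of GRCh38, and capitals mark the GATA motif in either orientation. The first lies at chr22:20025419-20025718 in an intron of TANGO2, the second at chr1:212860800-212861099 in an intron of FLVCR1, the third at chr6:43631179-43631478 within MAD2L1BP and upstream of GTPBP2, and the last at chr5:120512747-120513046 in an intron of PRR16. The MAD2L1BP region held 3 matches and each of the others 1.
TANGO2: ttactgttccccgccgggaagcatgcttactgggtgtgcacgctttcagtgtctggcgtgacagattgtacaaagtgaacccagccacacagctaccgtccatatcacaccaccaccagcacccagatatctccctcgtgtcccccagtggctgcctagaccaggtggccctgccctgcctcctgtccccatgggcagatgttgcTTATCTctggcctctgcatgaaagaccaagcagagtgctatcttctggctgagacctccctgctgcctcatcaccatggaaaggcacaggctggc
FLVCR1: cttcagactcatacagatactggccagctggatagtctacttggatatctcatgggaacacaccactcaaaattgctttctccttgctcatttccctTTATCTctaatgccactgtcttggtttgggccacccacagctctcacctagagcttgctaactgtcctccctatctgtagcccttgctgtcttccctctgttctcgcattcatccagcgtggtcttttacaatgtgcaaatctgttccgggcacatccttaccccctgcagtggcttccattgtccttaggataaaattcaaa
MAD2L1BP: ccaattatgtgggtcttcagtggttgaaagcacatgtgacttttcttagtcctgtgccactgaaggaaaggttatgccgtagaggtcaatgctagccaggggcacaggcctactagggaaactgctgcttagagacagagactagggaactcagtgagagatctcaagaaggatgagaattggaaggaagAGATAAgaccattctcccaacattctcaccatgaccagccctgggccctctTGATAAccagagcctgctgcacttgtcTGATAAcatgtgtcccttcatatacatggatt
PRR16: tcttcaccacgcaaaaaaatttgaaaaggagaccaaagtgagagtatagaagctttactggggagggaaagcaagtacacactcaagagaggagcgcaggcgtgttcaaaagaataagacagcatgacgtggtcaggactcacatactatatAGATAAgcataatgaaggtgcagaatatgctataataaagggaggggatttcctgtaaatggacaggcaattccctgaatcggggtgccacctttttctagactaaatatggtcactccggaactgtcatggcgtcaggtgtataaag

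The lost regions were weaker than the regions kept in all lines. Their height is given as the summit pileup, the number of tags at the peak's summit in libraries that the authors sampled to equal tag numbers. Since peak calls chose the regions, these heights are a description with no test. The median of the mean pileup over the 6 V-K562 and B-K562 libraries was 39.2, with quartiles of 30.3 and 54.7, against 72.5 in the regions with a peak in all 9 libraries. By library, the median over the lost regions was 38, 39 and 37 in V-K562 and 41, 39 and 39 in B-K562. The share lost fell with height, from 22.8% of regions with a mean pileup of up to 30, through 14.0% between 30 and 50 and 7.40% between 50 and 75, to 0.272% of those above 150. Still, 948 lost regions (35.7%) had a mean pileup above 46, the median of all G-K562 peaks. The regions just outside the rule were alike in height: 1069 had a peak in 1 G-K562 library and 1486 in 2, with medians of 40.0 and 40.2. Where a G-K562 library had a peak in these, its median pileup was 21 and 25. A library without a call is not shown to be without tags, since the lowest summit in any library was 10.

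The highest lost region lay in an intron of TANGO2, a gene whose loss causes a metabolic disorder, at chr22:20025276-20025847. Its pileup was 265, 299 and 265 in V-K562 and 714, 602 and 570 in B-K562, and the nearest G-K562 peak was 3509 bp away. The B-K562 values all lay above those of V-K562. The second lay in an intron of FLVCR1, a heme exporter and choline transporter, with 176, 161 and 137 in V-K562 and 337, 339 and 308 in B-K562. A region at chr8:23527642-23528221, 629 bp before SLC25A37, which encodes the mitochondrial iron importer mitoferrin, had 161, 154 and 144 in V-K562 and 251, 231 and 236 in B-K562. In an intron of ABCB10, a mitochondrial transporter of erythroid cells, the region at chr1:229554860-229555544 had 158, 140 and 113 in V-K562 and 240, 252 and 202 in B-K562. These regions were thus higher in B-K562 than in V-K562 without overlap. So were those at C21orf58, with 139 to 192 in V-K562 and 205 to 263 in B-K562, FRMD4A, with 126 to 145 and 182 to 218, and DIP2A, with 110 to 127 and 173 to 214. The region in NUP214, a nuclear pore gene at chr9:131180498-131180886, went the other way, with 209, 257 and 180 in V-K562 and 151, 146 and 155 in B-K562. The last 2 of the 10 highest lay at MAD2L1BP and at a site on chromosome 22 with no gene within 5 kb. All 10 held a GATA motif. These pileups were not scaled between the lines. The median ratio of B-K562 to V-K562 was 1.146 over the regions with a peak in all 9 libraries and 1.075 over the lost regions.

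**Figure D1:**
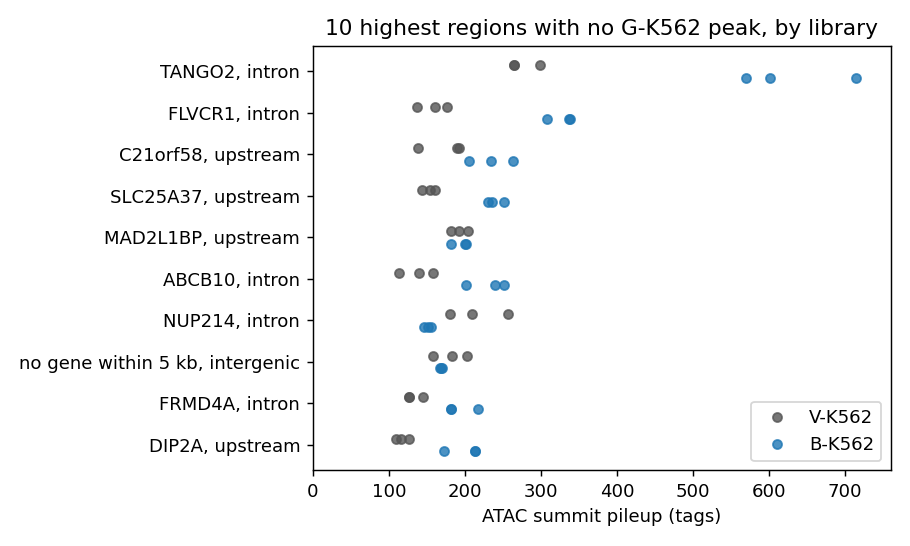
Summit pileup in tags (x axis) of the 10 highest lost regions (y axis, named by the gene within 5 kb and the place in coding genes), 1 point for each V-K562 and B-K562 library; G-K562 has no peak there and no point. The TANGO2 region stands apart with 570 to 714 in B-K562, and the region in NUP214 is lower in B-K562 than in V-K562.

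The lost regions lay mostly away from gene starts. Of the 2659, 41.9% had their summit in an intron and 45.1% between genes, while 2.33% (62 regions) lay within 100 bp of the start of a protein-coding transcript, 7.75% in the 5 kb upstream and 2.97% in an exon. In the regions with a peak in all 9 libraries, 24.5% lay at a start, 24.1% in introns and 29.5% between genes. The mirror set lost only in B-K562 had 3.66% at starts, 37.9% in introns and 48.5% between genes, close to the set lost only in G-K562. The median GC content was 47.3% in the lost regions and 58.3% in those kept in all 9. By chromosome, the lost share of the regions open in V-K562 and B-K562 ran from 4.01% on chromosome 19 to 13.3% on chromosome 18, and neither of the 2 such regions on chromosome Y was lost. The median distance to the nearest G-K562 peak was 10670 bp. For 216 regions (8.12%) a G-K562 peak lay within 1000 bp, and for 167 (6.28%) none lay within 100 kb.

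The GATA motif was found in 80.3% of the lost regions (95% Wilson interval 78.8 to 81.8), in 33.8% of all 85549 regions and in 23.9% of the regions with a peak in all 9 libraries. In the mirror set lost only in B-K562 it was found in 26.5% (23.9 to 29.2). Regions with a peak in 1 or 2 of the G-K562 libraries fell between, with 69.0% and 55.9%. Among regions in introns or between genes the shares were 81.4% of those lost and 35.3% of those with a peak in all 9. The lost regions also held it more often at each height, with 77.0% against 23.7% in the lowest bin of pileup and 12 of 12 lost regions against 19.8% above 150. Intervals here cover counting error only.

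**Figure D2:**
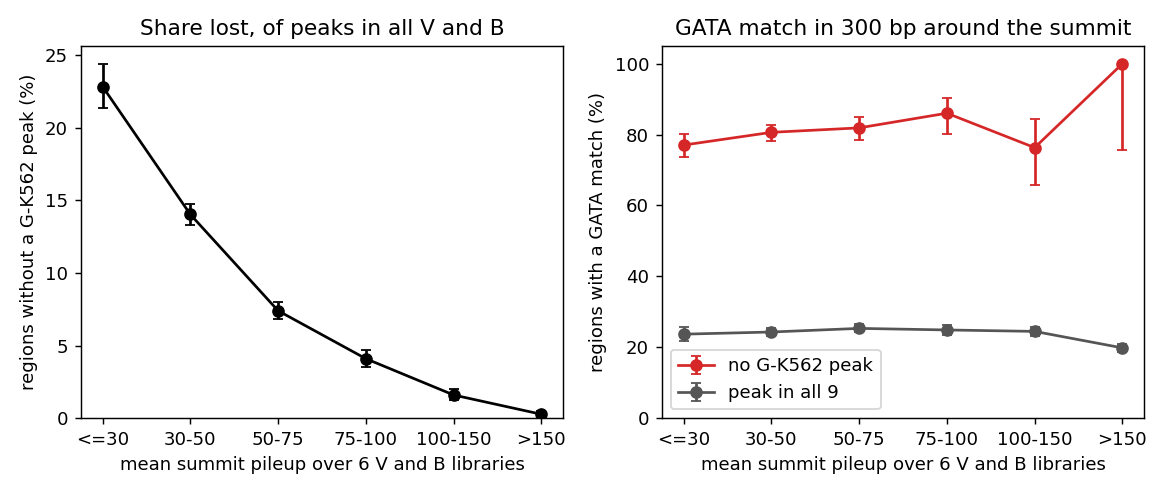
Left, share of the regions with a peak in all V-K562 and B-K562 libraries that had no G-K562 peak (y axis, percent) by mean summit pileup (x axis, tags); right, share holding a GATA motif among those lost (red) and those with a peak in all 9 libraries (gray), with 95% Wilson intervals. The lost share falls from 22.8% to 0.272%, while the GATA share stays at 76.3% or above in the lost regions and at 25.3% or below in the others.

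Seen from the motif, 2.37% of the 22044 regions without a GATA match were lost, 16.6% of the 6868 with 1 match and 30.2% of the 3286 with 2 or more. The same order held in introns and between genes (4.06%, 18.4% and 30.5%) and at gene starts (0.553%, 5.25% and 15.4%). The composite motif of GATA and TAL1, the letters CTG and a GATA site at a fixed spacing, was in 12.9% of the lost regions, 2.41% of all regions and 0.751% of those lost only in B-K562. Every composite match also counts as a GATA match. The GATA match nearest to the center lay at a median of 30 bp in the lost regions and 48 bp in the regions with a peak in all 9. Lost regions held 2 or more matches more often, in 37.3% against 6.2%. More matches alone make the nearest distance shorter, so these medians do not compare position by itself.

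Other motifs were no more frequent in the lost regions than in all regions, or only slightly. The AP-1 motif TGANTCA was in 16.4% of the lost regions and 20.1% of all, whereas it was in 37.4% of those lost only in B-K562. The TEAD motif GGAATG was in 17.2% and 15.5%, the RUNX motif TGTGGTT in 8.09% and 7.85%, and the CCAAT box, CCAAT, in 31.9% and 32.2%. Motifs typical of promoters and boundaries were rarer. The GC box GGGCGG was in 7.75% of the lost regions and 24.2% of all, the ETS motif CCGGAAG in 1.17% and 4.95%, and the CTCF motif in 0.414% and 2.42%. The E-box of MYC, CACGTG, was in 4.44% and 6.40%, the YY1 motif AAGATGGC in 1.28% and 2.37%, the WT1 and EGR motif GCGTGGGNG in 0.564% and 1.79%, and the NFE2 motif, which overlaps that of AP-1, in 0.827% and 1.15%. Both strands were searched, and a match is not shown to be bound.

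**Figure D3:**
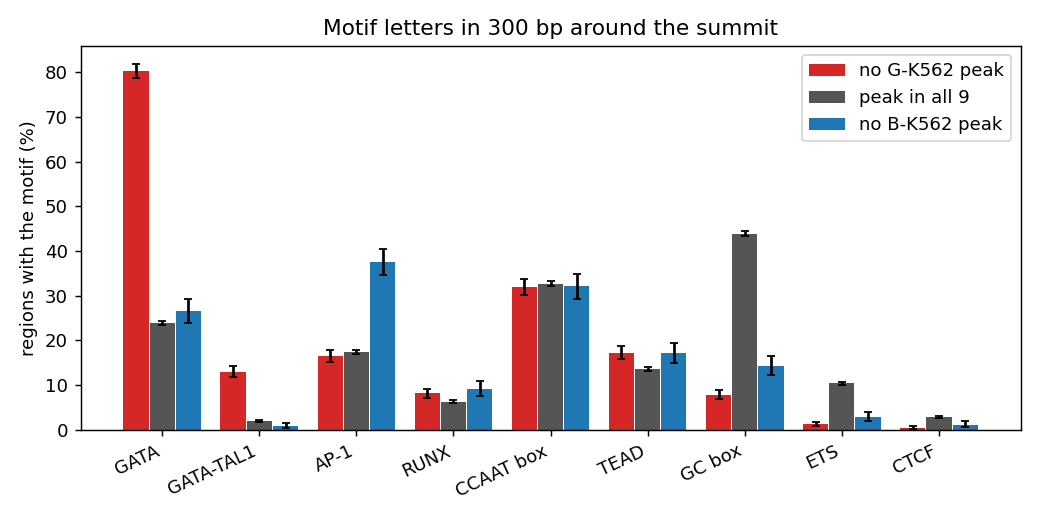
Share of regions (y axis, percent) holding each motif (x axis) in the 300 bp around the summit, for regions lost only in G-K562 (red), with a peak in all 9 libraries (gray) and lost only in B-K562 (blue), with 95% Wilson intervals. GATA stands at 80.3% in red against 23.9% and 26.5%, and AP-1 at 37.4% in blue against 16.4% in red.

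Some lost regions lay in groups. Of the 2659, 1013 lay within 100 kb of another, in 422 groups, and 37 groups held at least 4. At and beyond CNR1, which encodes a cannabinoid receptor, 7 regions spanned chr6:88171277-88421500. They were all of the regions open in V-K562 and B-K562 in that span, and no G-K562 library had any peak in it. Only 1 of the 7 lay within 5 kb of CNR1, and the others had no gene within 5 kb. CNR1 RNA was 96, 120 and 106 in V-K562 and 19, 17 and 13 in G-K562, and it rose in B-K562, to 236, 225 and 254. On chromosome 1, 6 regions at and past the end of IGSF21, at chr1:18373857-18444259, were likewise all of those open, with no G-K562 peak. IGSF21 itself had 3, 3 and 6 normalised reads in V-K562 and 0 in all G-K562 and B-K562 libraries, too few to compare. In the other large groups G-K562 kept part of the peaks. At MTSS1 and ZNF572 on chromosome 8, 8 of 18 open regions were lost and 9 had a peak in all 9 libraries. At DOCK2 and LCP2, genes of leukocyte signaling on chromosome 5, 6 of 9 were lost, and at ZMIZ1 on chromosome 10, 5 of 13. DOCK2 RNA was 4764, 5439 and 5536 in V-K562 and 6184, 4622 and 5910 in G-K562, and these overlapped. LCP2 was 2066, 1937 and 1799 against 2287, 2104 and 2132, a log2 difference of 0.17 (adjusted p = 0.042, limma). ZMIZ1 was higher in G-K562 without overlap, at 3217, 3654 and 3585 against 6152, 5227 and 6327, by 0.76 on the log2 scale (adjusted p = 6.0e-06, limma). However, 4 of the 5 regions there were closest to the noncoding ZMIZ1-AS1 and 1 to ZMIZ1. ZMIZ1-AS1 RNA overlapped, at 34, 24 and 42 in V-K562 and 30, 26 and 37 in G-K562. MTSS1 was lower, at 37, 35 and 39 against 25, 18 and 25, by less than 2-fold, and ZNF572 overlapped, at 89, 111 and 114 against 79, 96 and 97.

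To describe the genes at the lost regions, each region was given the closest gene within 5 kb, which 1682 regions (63.3%) had, for 1449 genes. RNA values are normalised read counts, and a gene was called at an adjusted p of at most 0.05 in limma and at least 2-fold. In G-K562 against V-K562, 1157 of the 1449 genes passed the filter on low values. Of these 238 (20.6%) were lower and 67 (5.79%) higher, against 10.3% lower and 8.81% higher over all 15271 genes tested. Their median log2 difference was -0.17, against 0.00 over all genes. At genes next to regions with a peak in all 9 libraries, 7.63% were lower and 6.85% higher. A gene expressed in V-K562 alone passes the filter only through that line, and 68 of the 238 had a value under 10 in some library. Among genes with at least 10 in all 6 libraries, 16.2% were lower at the lost regions and 7.35% over all genes.

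In B-K562 against V-K562, where these regions kept their peaks, 162 of 1158 genes (14.0%) were lower and 71 (6.13%) higher, against 14.1% and 6.46% over all genes tested. These shares were near the background. Genes at the mirror set, lost only in B-K562, were lower in 28.0% of 472 and higher in 3.39% in the same comparison. A larger share of lower genes next to lost peaks was therefore not particular to G-K562. For genes at the regions lost only in G-K562, 241 of 1174 (20.5%) were lower and 140 (11.9%) higher in G-K562 against B-K562. Over all genes these shares were 12.5% and 17.4%. These comparisons share libraries and are not independent of each other.

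The share of lower genes in G-K562 was larger where more regions were lost and where the lost region lay at the start. It was 19.4% of 1006 genes with 1 lost region, 23.9% of 117 with 2 and 44.1% of 34 with 3 or more, whose median was -0.94. With a lost region in the 5 kb upstream it was 21.9% of 164. Of 59 genes with a lost region at a transcript start, 52 were tested, and 34 (65.4%) were lower and 0 higher in limma. Of the 34, 13 had a value under 10 in some library and passed the filter through V-K562, and among the 37 with at least 10 in all 6 libraries 21 (56.8%) were lower. At any fold, 42 were lower and 2 higher. In B-K562, 7 of 56 such genes were lower and 5 higher. For comparison, 5.27% of 5897 genes with a start peak in all 9 libraries were lower in G-K562.

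**Figure D4:**
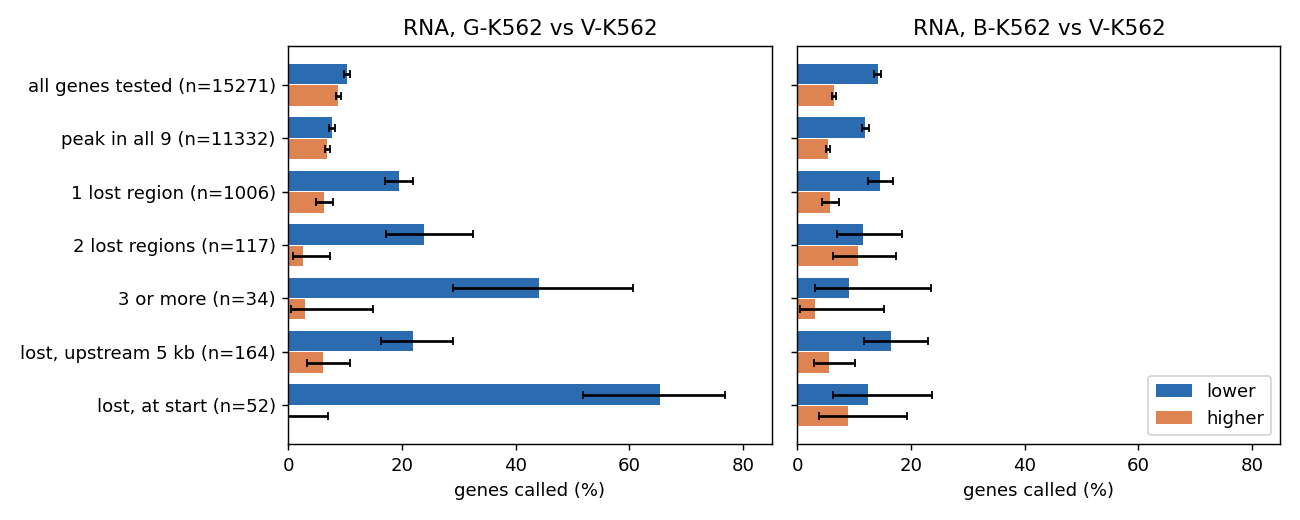
Share of tested genes called lower (blue) or higher (orange) on the x axis, in percent with 95% Wilson intervals, in G-K562 (left) and B-K562 (right) against V-K562, for gene sets on the y axis with the number tested in G-K562 against V-K562. In the left panel the lower share climbs from 10.3% of all genes to 65.4% of genes with a lost region at the start, and in the right panel the same sets lie at 9.09% to 16.6%.

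The lost regions at gene starts included those of zinc finger genes and of some erythroid genes. The zinc finger genes, whose symbols are ZNF and a number, encode DNA-binding proteins that mostly repress transcription, and they were grouped after their values were seen. Of the 62 lost regions at starts 15 were at ZNF genes, all on chromosome 19 and none with a GATA motif, while 27 of the other 47 had one. The 15 regions served 13 genes, and all 12 that were tested were lower in G-K562, with a median log2 difference of -3.37, whereas 1 of 13 was lower in B-K562. Of the 12, 7 had a value under 10 in a G-K562 library and passed the filter through V-K562, and the other 5 had at least 10 in all 6 libraries. Examples are ZNF264, with 391, 421 and 489 in V-K562 and 107, 73 and 99 in G-K562, and ZNF433, with a mean of 208 and 12. Over all ZNF genes tested, 17.2% of 429 were lower in G-K562 and 2.80% higher. Where such a gene had a start peak in all 9 libraries, 9.73% of 257 were lower. Members of this family are alike in sequence, and reads that match several of them were not kept by the authors.

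Erythroid membrane and muscle-type genes were among the others at starts. EPB42, which encodes a protein of the red cell membrane skeleton, had its lost region at chr15:43220770-43221466, with pileups of 53, 61 and 44 in V-K562 and 102, 78 and 62 in B-K562. EPB42 RNA was 219, 233 and 219 in V-K562 and 33, 36 and 44 in G-K562, and 684, 693 and 703 in B-K562. All G-K562 values lay below, and all B-K562 values above, those of V-K562. The log2 difference was -2.55 ± 0.15 (SE) in G-K562 (adjusted p = 5.0e-08, limma) and 1.65 ± 0.07 in B-K562 (adjusted p = 2.4e-10, limma). GYPB, which encodes a red cell membrane protein and has near-identical copies that may share its reads, was 440, 316 and 357 in V-K562 and 173, 199 and 139 in G-K562. MYL4, a myosin light chain of atrial muscle and erythroid cells, fell from 4313, 4013 and 3822 to 592, 728 and 517. EDARADD, an adaptor of ectodysplasin signaling with 3 lost regions, fell from 684, 714 and 658 to 63, 67 and 61. SPECC1 and TNKS1BP1 had a lost region at a start without a 2-fold fall. SPECC1 was 725, 871 and 785 in V-K562 and 947, 906 and 1049 in G-K562, and TNKS1BP1 was 3445, 3649 and 3666 against 2876, 2595 and 2981.

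The 10 largest falls among genes at lost regions left 0 to 81 normalised reads per library in G-K562. PRR16, which encodes a regulator of cell size, has 1 lost region at its start, at chr5:120464082-120464522, and 1 in an intron. Its RNA was 198, 179 and 166 in V-K562 and 1, 1 and 0 in G-K562, with 44, 38 and 50 in B-K562. TGFBR2, the type II receptor of TGF-beta, also has 1 at the start, at chr3:30606297-30606794, and 1 in an intron. Its RNA was 389, 428 and 441 in V-K562, 5, 14 and 4 in G-K562, and 93, 72 and 66 in B-K562, so the order of the lines was V-K562, B-K562, G-K562 without overlap. For both genes the nearest G-K562 peak lay far away, at 693784 bp from the start region of PRR16 and 845978 bp from that of TGFBR2. ARHGDIB, a GTPase regulator of blood cells, has its lost region at the start and fell from 2450, 2373 and 2261 to 49, 81 and 56, by 5.26 ± 0.15 on the log2 scale (adjusted p = 2.8e-10, limma). It was 1806, 1716 and 1651 in B-K562.

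Of the other genes with the largest falls, LINC00508 has its lost region at its start as well, and the rest have theirs within the gene, in introns or, for GDF2, in an exon. Not all lost regions of the 10 genes held a GATA motif. It was absent at LINC00508, ARHGAP15, ARHGDIB and ZNF618 and in both regions of TGFBR2. It was present at SYN3, SH3GL3 and GDF2. In PRR16 and PARD3B, 1 of 2 regions held it, and the start region of PRR16 did not. ARHGAP15, a Rac GTPase-activating protein, was 564, 667 and 614 in V-K562 and 7, 13 and 10 in G-K562. ZNF618 was 484, 551 and 565 against 17, 15 and 14, and SH3GL3, an endophilin, was 533, 518 and 464 against 15, 12 and 7. The polarity gene PARD3B was 152, 197 and 215 against 2, 1 and 4, and the synapsin SYN3 was 114, 121 and 119 against 0, 1 and 0. GDF2, which encodes BMP9, was 82, 97 and 101 against 2, 1 and 1. LINC00508, a noncoding RNA, was 282, 262 and 260 in V-K562 and 0, 3 and 1 in G-K562, and 543, 540 and 534 in B-K562. Log2 differences of these 10 genes ran from -7.07 to -5.03, on the log2(value + 1) scale, which understates changes of low genes. In B-K562, 7 of the 10 were also lower and 1 was higher at 2-fold, against 14.1% and 6.46% over all genes tested. ARHGDIB (-0.43, adjusted p = 6.3e-06, limma) was lower and ZNF618 (0.68, adjusted p = 1.5e-06, limma) higher in B-K562 by less than 2-fold. The 10 genes were chosen by their fall from the same V-K562 cultures.

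Of the genes with most lost regions, 5 each, ELMO1 fell furthest. ELMO1, which activates Rac in cell migration and engulfment, was 563, 630 and 583 in V-K562, 23, 30 and 21 in G-K562 and 275, 303 and 261 in B-K562. RALGPS1, an exchange factor of Ral, was 124, 153 and 203 in V-K562 and 56, 66 and 66 in G-K562, a log2 difference of -1.31 ± 0.18 (SE, adjusted p = 5.2e-05, limma). KAZN, a desmosome-associated protein, and CTNNA2, an alpha-catenin, were lower by less than 2-fold, with log2 differences of -0.33 (adjusted p = 0.0053, limma) and -0.97 (adjusted p = 0.014, limma).

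**Figure D5:**
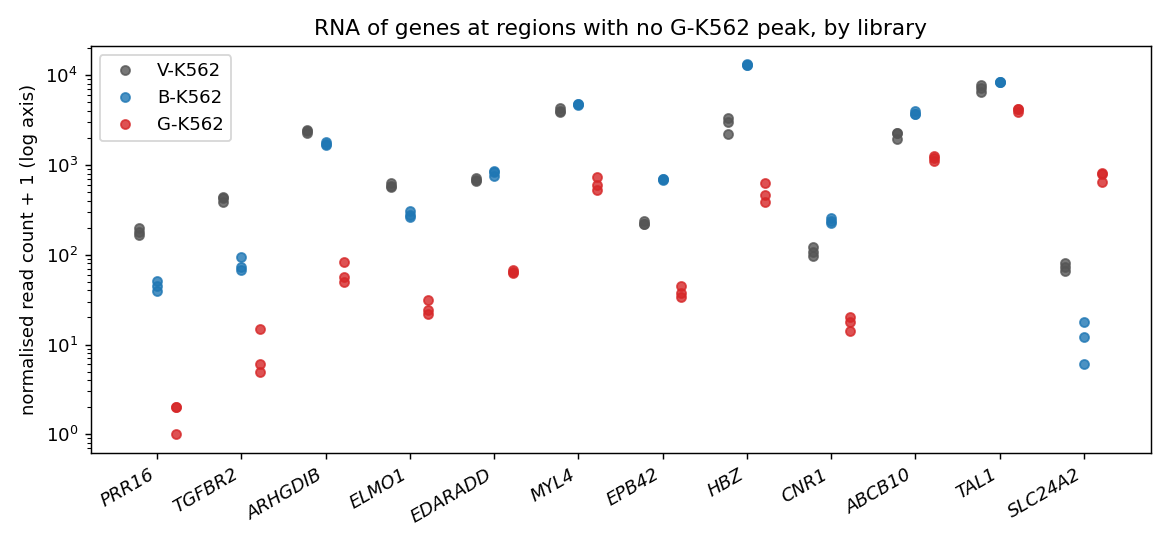
RNA of 12 genes at lost regions (x axis) as the normalised read count plus 1 on a log axis, 1 point per library for V-K562 (gray), B-K562 (blue) and G-K562 (red), the B-K562 values from the table that was normalized separately. In 11 of the genes every G-K562 point lies below every V-K562 point, and in SLC24A2 the order is turned.

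Rises at lost regions were fewer, with 67 genes called higher and 238 lower, and 53 of the 67 had at least 10 in all 6 libraries. The 6 largest rises started from a mean under 100 in V-K562. SLC24A2, a sodium, potassium and calcium exchanger, rose from 65, 71 and 80 in V-K562 to 799, 647 and 800 in G-K562, while it was 17, 5 and 11 in B-K562. ATP8B4, a phospholipid flippase, rose from 37, 44 and 57 to 318, 293 and 409. The noncoding genes PCAT14 and LOC101927069 rose from 11, 10 and 20 to 121, 81 and 114 and from 24, 17 and 8 to 116, 145 and 172. SH3RF3, with 4, 1 and 3 in V-K562 and 30, 32 and 73 in G-K562, and the neurexin gene NRXN3, with 1, 1 and 8 against 31, 19 and 44, were near the limit of detection in V-K562. The log2 difference of NRXN3 was 3.21, and 3.94 without V-K562 replicate 3. NRXN3 has 3 lost regions within its span.

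At the 10 highest lost regions, FRMD4A, a scaffold of cell polarity, was the only gene to pass 2-fold in G-K562, with 197, 226 and 197 in V-K562 and 47, 56 and 44 in G-K562. ABCB10 was 2232, 2236 and 1954 in V-K562, 1190, 1246 and 1106 in G-K562 and 3940, 3723 and 3675 in B-K562. SLC25A37 was 15398, 15864 and 15822 in V-K562 and 7394, 8783 and 7557 in G-K562, a log2 difference of -0.99 ± 0.07 (SE, adjusted p = 2.1e-07, limma), just under 2-fold. FLVCR1 was 1143, 1174 and 1090 against 827, 853 and 860. TANGO2 overlapped between V-K562, at 2481, 2568 and 2572, and G-K562, at 2499, 2345 and 2407, but it was 4865, 5232 and 4933 in B-K562. NUP214, C21orf58 and DIP2A were higher in G-K562, by less than 2-fold, at 0.35, 0.31 and 0.39 on the log2 scale (adjusted p = 0.00078, 0.0011 and 0.00025 in limma).

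Among erythroid genes and the factors of the GATA complex, TAL1 and HBZ have a lost region of their own. The region 2550 bp from TAL1, at chr1:47213122-47213740, had pileups of 48, 56 and 53 in V-K562 and 65, 83 and 75 in B-K562. TAL1 RNA was 6449, 7224 and 7673 in V-K562, 4222, 3886 and 4230 in G-K562, and 8310, 8331 and 8331 in B-K562. The region at chr16:143009-143439, in the alpha-globin locus at HBZ, the embryonic zeta-globin gene, had 36, 58 and 54 in V-K562 and 104, 100 and 109 in B-K562. HBZ RNA was 3333, 2995 and 2223 in V-K562 and 466, 622 and 385 in G-K562, and it was 13104, 12872 and 12751 in B-K562. The remaining factors of the complex have no lost region within 5 kb and were named after their values were seen. GATA1 was 8207, 8194 and 8196 in V-K562 and 5819, 5560 and 5347 in G-K562, and GATA2 was 6879, 6771 and 7031 against 7357, 7233 and 6638. LMO2 fell from 1909, 1783 and 1732 to 749, 848 and 677, and LDB1 was 7427, 7268 and 7075 against 5346, 5014 and 4692. KLF1, an erythroid activator, fell from 2558, 2662 and 2428 to 1019, 951 and 781. GATA2 alone of these overlapped between the lines.

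Over the whole list of 43 motif factors, 42 were tested, and 4 were lower and 5 higher in G-K562 at 2-fold. These counts lie near the shares over all 15271 genes tested, which were 10.3% lower and 8.81% higher. The 4 lower factors were RUNX3, MYC, KLF1 and LMO2, with log2 differences of -2.68, -1.48, -1.48 and -1.26. ERG, FOS and WT1 were higher by 2.08, 1.65 and 1.37. The FOS value rested in large part on G-K562 replicate 2, with 1557, 3993 and 959 in G-K562, and was 1.08 without it. Of 30 genes that open or close chromatin, 2 were lower and 1 higher, which is not above the shares over all genes. These were the DNA methyltransferase gene DNMT3A at -1.99, the histone demethylase gene KDM1A at -1.02 and the remodeler gene SMARCA2 at 1.32. Other genes of these lists have a lost region without a 2-fold change in G-K562. They include ARID1A, 6504, 6932 and 6852 in V-K562 against 7815, 6763 and 7534, SPI1, 1739, 1670 and 1789 against 1940, 1738 and 1866, and BACH1, PBRM1, ARID1B, KAT2B and RUNX2. FLI1, CSF1R and CDH1 have a lost region and were too low to test.

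Most of the line's defining markers were lower in G-K562. Of 10 markers of K562 erythroleukemia cells, 6 were lower and 0 higher in G-K562 at 2-fold, against 10.3% and 8.81% over all genes tested. At any fold, where the shares over all genes were 33.3% and 33.55%, 8 markers were lower and 2 higher. Their summed value was 132642 to 148171 in V-K562, 76397 to 82332 in G-K562 and 225625 to 229889 in B-K562, the last from a separately normalized table after multiplication by 1.017. The gamma-globin genes HBG1 and HBG2, near-identical copies, fell by 2.85 and 2.81 on the log2 scale. The 2 higher markers were TFRC and LYL1. TFRC was 20453, 22731 and 20919 in V-K562 and 35087, 28864 and 31068 in G-K562. LYL1 was 4651, 4587 and 4992 against 7454, 6822 and 7265. Markers of other cells were summed too: 3 of T lymphocytes at 446 to 605 in V-K562 and 184 to 255 in G-K562, 3 of B lymphocytes at 111 to 130 and 86 to 128, 3 of monocytes at 1342 to 1388 and 3799 to 4322, 3 of fibroblasts at 1517 to 1775 and 1157 to 1281, and 4 of epithelium at 31871 to 33445 and 39306 to 40592. The B lymphocyte marker MS4A1 was at 0 in all libraries. Nearly all of the monocyte sum was LYZ, at 1353, 1323 and 1369 in V-K562 and 4301, 3822 and 3772 in G-K562. CD14 and CSF1R had at most 20 in any library of these 2 lines. Most of the T lymphocyte sum was CD3D, while CD3E was 15, 12 and 16 in V-K562 and 20, 29 and 27 in G-K562. The part of these shifts in the loss of regions was not tested. BASP1 itself was 7, 5 and 7 in V-K562, 6849, 6618 and 6189 in B-K562 and 9323, 12538 and 8124 in G-K562, and these reads do not tell the mutant from the wild type. Library totals of normalised reads were 32074895 to 33229588 in V-K562 and 32342190 to 33138341 in the BASP1 lines, and 47111 to 55570 peaks were called per ATAC-seq library.

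The lost regions were also split by their distance from the nearest G-K562 peak and by the motif. Of the 167 with no G-K562 peak within 100 kb, 74.3% held a GATA motif, against 81.5% of those within 1 kb. Their 37 tested genes were lower in 56.8% in G-K562 with a median of -2.21, against 15.7% and -0.01 for the 127 genes at regions within 1 kb of a G-K562 peak, 17.7% for 1 to 10 kb and 23.7% for 10 to 100 kb. Only 37 of 63 genes at the far regions were tested, against 127 of 142 within 1 kb. Some of the 37, such as PRR16, LINC00508 and PARD3B, had under 10 in every G-K562 library and passed the filter through V-K562. In B-K562 the genes of the far regions had a median of 0.01. The 523 lost regions without a GATA motif had 6.69% at starts, against 1.26% of the 2136 with one. Genes at regions without the motif were lower in 30.7% of 280 and genes at regions with it in 18.6% of 928. These splits were made after the values were seen and carry no test.

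Regions that kept a peak in all 9 libraries were also lower more often near the lost ones than over all. Within 20 kb of a lost region lay 1855 such regions, whose heights the rule did not use, and their pileups were compared after scaling each library by a trimmed mean. Of these, 264 (14.2%) were lower in G-K562 and 13 (0.701%) higher at 2-fold in limma, against 8.52% and 1.21% of all 26984. The median log2 difference from V-K562 was -0.13 near lost regions and 0.02 over all. Without the scaling, which moves the log2 difference by 0.382, 139 were lower and 115 higher near lost regions, and 1134 and 2196 over all. Nearby regions with a GATA motif were lower in 34.4% of 549, and those without it in 5.74% of 1306. Over all regions with a peak in all 9 libraries the same shares were 26.3% of 6450 and 2.94% of 20534, so the difference by motif was present away from the lost regions too.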

How the data were processed

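Each line had 3 culture replicates per assay, so that 9 libraries of RNA-seq and 9 of ATAC-seq were used. RNA-seq reads were aligned to GRCh38 by the authors (STAR), freed of duplicates and counted on RefSeq genes (Subread). The deposited RNA signal is the count over a size factor per library, as a rounded whole number, with 1 table per BASP1 line and its V-K562 controls. ATAC-seq reads were aligned by the authors (BWA-MEM), the libraries were brought to equal tag numbers, peaks were called in each (MACS2), and the deposited coverage (signal) is the tags at each summit and their mean over the interval. Other deposited columns with the authors' fold changes and p-values were not used.

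The tests were first set for counts. Since the values are normalized, limma-trend 3.58.1 (R 4.3.3) on log2(value + 1) was used, with Benjamini-Hochberg adjustment over all genes with at least 10 in at least 3 libraries. The comparison of the BASP1 lines with each other used a fit of all 9 libraries, with B-K562 values multiplied by 1.017, the mean ratio of the V-K562 columns between tables. ATAC values were scaled by a trimmed mean (30% of log ratios and 5% of mean values trimmed at each end). Fits were tested on simulated data. Regions were placed by their summits in protein-coding transcripts of GENCODE 44, and gene spans came from exon positions in the expression tables. Sequence was read from GRCh38, with interval starts taken as counted from 0. Shares have 95% Wilson intervals. Tables were handled with pandas 2.3.3 and scipy 1.17.1 in Python 3.11.15, and plots were made with matplotlib 3.10.9.

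Named were the 10 highest regions, the regions of the 10 largest falls and 6 largest rises of RNA in G-K562 with a mean value of at least 10, the 5 largest groups (ties by summed pileup), up to 8 regions at starts, regions at listed genes, and called genes of the lists. BASP1, GATA1, GATA2, LMO2, LDB1, the genes with most lost regions and the ZNF genes were added after their values were seen. The regions and lists were chosen with earlier results of these data known. The p-values measure the spread between cultures of 1 line each. A few named items are not reported here. Alternatives were other filters, pseudocounts, distances, overlaps and scalings, a replicate block, and leaving out each library.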

Additional observations from a re-analysis of the deposited data

Results flagged for a closer look

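The values below are log2 differences of RNA between the 2 BASP1 lines, G-K562 minus B-K562, in a limma fit of all 9 libraries. They stand out because the 2 lines differ by this direct test at an adjusted p of at most 0.05 and at least 2-fold. Each line is 1 pool of cells, so a difference between the pools and one between the proteins cannot be told apart. Of the named genes, 34 were lower in G-K562 than in B-K562 and 14 higher. Over all 15521 genes tested the order was the other way, with 12.5% lower and 17.4% higher. Some of the named genes came from the lists and have no lost region assigned to them, such as KLF1, MYC, HBG1, LYZ and CD3G. The largest differences toward lower values were in LINC00508 (-8.10), ZNF618 (-5.71), SYN3 (-5.48), PRR16 (-4.84), ARHGDIB (-4.83), HBZ (-4.77), PARD3B (-4.75), ARHGAP15 (-4.35) and SH3GL3 (-4.34). Next came EPB42 (-4.20), CNR1 (-3.83), EDARADD (-3.67), HBG1 (-3.54), HBG2 (-3.50), ELMO1 (-3.49), GDF2 (-3.36), TGFBR2 (-3.36) and MYL4 (-2.98). Further down were FRMD4A (-2.58), KLF1 (-2.36), ZNF264 (-2.07), GYPB (-1.88), CD3G (-1.74), ABCB10 (-1.70), LMO2 (-1.66), CTNNA2 (-1.60) and HBE1 (-1.58). The smaller ones were in MYC (-1.54), DNMT3A (-1.5), MTSS1 (-1.42), TANGO2 (-1.08), TAL1 (-1.04), LDB1 (-1.02) and KDM1A (-1.02). Higher in G-K562 were SLC24A2 (6.07), SH3RF3 (4.53), NRXN3 (3.73), RUNX2 (3.15), LOC101927069 (2.99), PCAT14 (2.73), ERG (2.03), ATP8B4 (1.80), RUNX3 (1.79), LYZ (1.55), SMARCA2 (1.33), ZMIZ1-AS1 (1.25), WT1 (1.17) and LCP2 (1.07). Most of these genes were named for their change in G-K562, so the direction of the differences is partly set by that choice. No explanation of these differences was tested.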

How the results depend on the processing

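In G-K562 against V-K562, more genes at lost regions were lower than higher under every alternative run, but sizes moved with some settings. The lost set held 1125 regions with a pileup of at least 30 in all 6 libraries, 3728 when a peak in 1 G-K562 library was allowed, and 2828 to 3135 when a library was left out. Without a criterion on the fold change, 537 genes at lost regions were lower and 320 higher in G-K562 against V-K562, 492 and 399 in B-K562 against V-K562, and 570 and 364 in G-K562 against B-K562. Leaving out a library gave 197 to 246 lower and 57 to 74 higher in G-K562 against V-K562, 132 to 161 and 63 to 75 in B-K562 against V-K562, and 232 to 249 and 131 to 146 in G-K562 against B-K562. For the regions with a peak in all 9 libraries near lost ones, 139 were lower and 115 higher without scaling, 578 and 345 without a criterion on the fold change, 60 and 6 within 5 kb, and 801 and 58 within 100 kb. Leaving out a library gave 251 to 274 lower and 12 to 20 higher, the highest without G-K562 replicate 1. A start within 1000 bp held 5.27% of the lost regions. Fewer or more features entered by construction with the distance, fold and height settings, and the cause was not tested for the others. The replicate block gave 238, 162 and 242 lower genes in the same order of comparisons, and 264 lower regions; numbers in the labels did not pair samples, with correlations of -0.097 to 0.145 between same-numbered libraries. For single genes, ZMIZ1-AS1 (-0.29 to 0.10 when a library was left out) turned to 0.03 without G-K562 replicate 2 and to 0.10 without V-K562 replicate 3, and DOCK2 (-0.0023 to 0.21) to -0.0023 without G-K562 replicate 1, and neither was called. GYPB, KDM1A and HBE1 fell under 2-fold, at -0.95 to -0.99, and SLC25A37 and CTNNA2 passed it, when some libraries were left out. Equal tag numbers and a lowest called summit of 10 limit what a missing peak shows.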

Other observations

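More genes had a lost region at their start and lower RNA in G-K562, and these were picked for mention after their values were seen. Genes of blood cells were among them. MS4A3, a myeloid membrane protein, had means of 3507 normalised reads in V-K562 and 451 in G-K562, and ACKR1, the Duffy antigen receptor of red cells, had 58.7 and 2.33. MS4A4A had 157 and 2.67, with a log2 difference of -5.55 in G-K562 and 2.61 in B-K562. CD226, a receptor of lymphocytes and platelets, had 240 and 30, and the integrin gene ITGB7 had 123 and 17.7. Genes tied to the cytoskeleton and adhesion were there too. FHL2, a LIM domain protein, had 1365 and 103, and TNS1, a tensin of focal adhesions, had 1130 and 150. In B-K562, TNS1 differed from V-K562 by 0.82 and FHL2 by -0.37 on the log2 scale.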
